A study of Rattus norvegicus with 9 samples.

Results

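The enzymes that turn cholesterol into conjugated bile acids were followed in rat liver. They were the products of 10 genes, Cyp7a1, Cyp8b1, Cyp27a1, Cyp7b1, Hsd3b7, Akr1d1, Amacr, Scp2, Slc27a5 and Baat. A probe set, a group of probes that gives 1 value on each array, was taken when its gene symbol in the platform annotation was exactly one of these names. This gave 12 of the 31042 probe sets, with 2 each for Akr1d1 and Scp2, and 10 of the 14217 genes that the annotation names with 1 symbol. All 12 passed the filter on dim signals, which kept 18625 probe sets. Cyp7b1 passed it narrowly, at the 40.6th percentile of mean signal with the filter at the 40th, while the other 11 lay well above it.

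Total RNA came from the livers of Wistar rats weighing 180 to 220 g, all labelled male, and was read on an Affymetrix rat array in 1 colour. The study allotted 36 rats at random to 3 groups of 12, labelled control, model and drug, and arrayed 3 rats drawn at random from each. The drug group is labelled as having received 7-P. The sources used here do not give the treatment of the model rats, what 7-P is, its dose and timing, whether the drug rats were also treated as the model rats were, or the age of the animals. The comparisons asked where model livers stood against control livers, drug livers against model livers, and drug livers against control livers.

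Bile acid synthesis is the main route by which the liver disposes of cholesterol. In the classical pathway, Cyp7a1 adds the first hydroxyl group to the sterol ring in the endoplasmic reticulum, and Hsd3b7, Cyp8b1 and Akr1d1 remodel the ring. In the alternative pathway, mitochondrial Cyp27a1 starts from the side chain and Cyp7b1 hydroxylates the resulting oxysterol. The side chain is then shortened in peroxisomes with Amacr and the thiolase made from Scp2. Slc27a5 joins bile acids to coenzyme A, and Baat conjugates bile acids with taurine or glycine. Bile acids limit their own synthesis: the nuclear receptor FXR, encoded by Nr1h4, induces the repressor SHP, encoded by Nr0b2, and an intestinal hormone acts through the liver receptor Fgfr4.

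The values below are log2 signals after quantile normalization, and a difference of 1 is a 2-fold difference. Before normalization the trimmed mean signal of the arrays ranged from 33.2 to 80.4. The labelled tissue was borne out by its markers, since the mean log2 signal of 9 hepatocyte genes lay between 11.5 and 11.7 in every array. Control 2 and drug 3 stood apart from the other 7 arrays in sex-linked transcripts. Xist, expressed from the inactive X chromosome, had a log2 signal of 2.65 and 3.05 in them and of 8.06 to 10.9 in the others, which goes against the label male on those 7. Of the Y-linked genes, Eif2s3y, whose probe set lies below the filter, was at 6.99 and 7.17 in these 2 arrays and at most 2.53 elsewhere, but Uty was lower in both, at 6.19 and 5.71 against 6.54 to 6.80. Cyp2c11, a hydroxylase that rat liver makes in males, stood at 11.3 and 12.1 in these 2 arrays and at most 5.22 elsewhere. The ratio of 3' to 5' signal of Gapdh, a reading of RNA quality, was 1.52 to 3.14 in control, 4.09 to 12.7 in model and 1.31 to 9.20 in drug arrays, so that the model arrays lay above all control arrays. The same ratio for beta-actin was 4.23 to 8.41 in control, 7.31 to 12.8 in model and 3.99 to 11.5 in drug arrays. By beta-actin, model 3, at 7.31, lay below control 2 and control 3, at 8.41 and 7.59. Among markers of other cells, the mean over 4 neutrophil genes was 4.16 to 4.91 in control, 5.45 to 6.71 in model and 4.31 to 6.76 in drug arrays, and the mean over 9 Kupffer cell and macrophage genes was 6.57 to 7.30, 7.07 to 7.91 and 6.96 to 7.82. The mean over 6 sinusoidal endothelium genes was 6.07 to 6.61 in control, 6.68 to 6.94 in model and 6.25 to 6.55 in drug arrays, so that the model arrays lay above both other groups. The mean over 5 bile duct genes was 4.67 to 4.98 in control, 3.73 to 4.56 in model and 4.23 to 4.57 in drug arrays. There the control arrays lay above both other groups. The mean over 8 stellate cell genes lay between 5.02 and 5.67 in all arrays and that over 3 erythroid genes between 5.45 and 7.60. Among 9 intestine and pancreas genes, only Cpa1 passed the filter, at 0.34 in control 2, 3.35 in drug 3 and 7.79 to 11.5 in the others. The other pancreas genes did not share this pattern. Cela1 was at 7.03 in control 2, 5.89 in drug 3 and at most 1.48 in the others. Prss1 and Amy2a3 were at most 3.15 and 3.22 in all arrays. The part of these differences in the results below was not tested, apart from the settings named there. In whole liver, fewer cells of a type and less RNA per cell cannot be told apart.

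None of the 12 probe sets passed an adjusted p under 0.05 in any of the 3 comparisons, by limma with Benjamini-Hochberg adjustment over all 18625 probe sets. The share called over all probe sets was likewise 0% in each comparison. At an unadjusted p under 0.05, 3 of 12 member probe sets stood out between model and control, against a background of 12.1% of all probe sets. Cyp7a1 and a probe set of Scp2 were the higher ones and Hsd3b7 the lower one. Between drug and model it was 1 of 12, Cyp8b1, against 3.28%. Between drug and control it was 3 of 12, against 7.22%, with Cyp7a1 and the same Scp2 probe set higher and Cyp8b1 lower. Groups did not overlap for 2 of 12 member probe sets between model and control, for 2 between drug and model and for 1 between drug and control, against 22.6%, 8.05% and 12.5% of all probe sets. In the F test over the 3 groups, Hsd3b7, Cyp8b1 and the dimmer Scp2 probe set had an unadjusted p under 0.05, against 7.45% of all probe sets, and none passed after adjustment (lowest limma adjusted p = 0.657). The members' shares at an unadjusted p under 0.05 lay above the background in each of these, but rest on 1 to 3 probe sets, and nothing particular to the pathway is read from them. The median difference over the 10 genes was 0.08 for model minus control, 0.04 for drug minus model and 0.14 for drug minus control, beside 0.02, -0.02 and -0.02 over all probe sets tested. The median in model against control turned negative under each of 3 other scalings, at -0.71 without normalization, -0.38 after median centring and -0.15 after scaling to 1 trimmed mean, where all probe sets stood at -0.40, -0.07 and 0.16. That in drug against control turned to -0.40 without normalization and -0.12 after median centring, where all probe sets stood at -0.36 and -0.07.

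**Figure D1:**
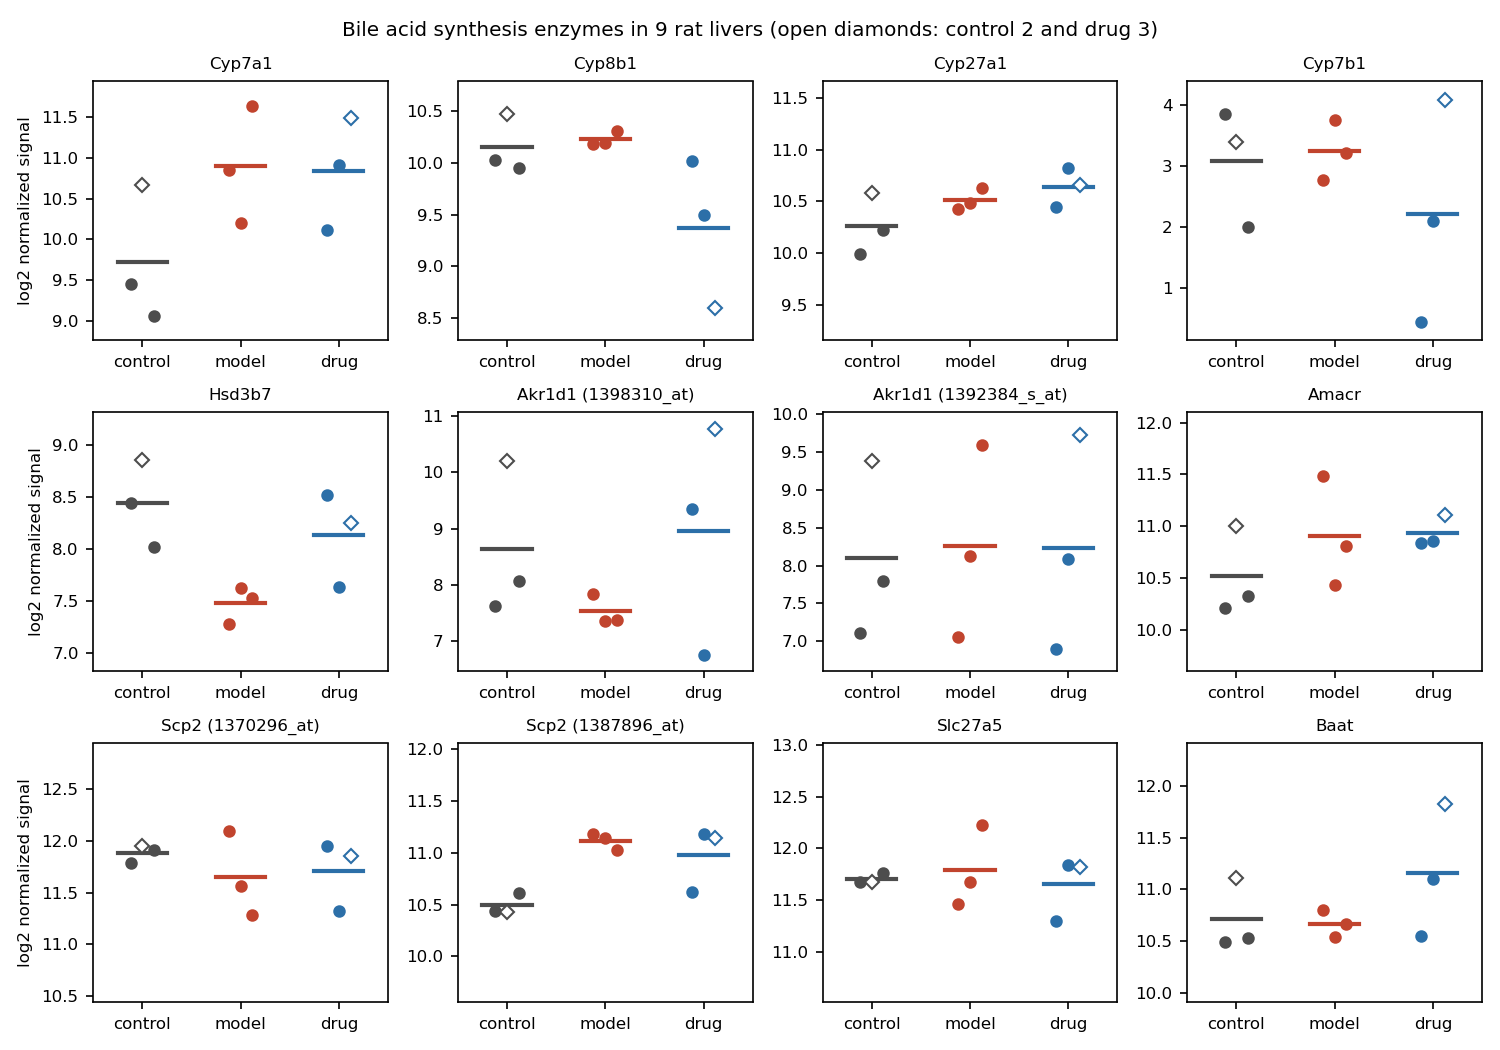
Log2 normalized signal of each of the 12 probe sets (vertical axis) in the 3 control, 3 model and 3 drug arrays (horizontal axis). Each point is 1 liver, bars are group means, and open diamonds are control 2 and drug 3. The 3 model points of Hsd3b7 lie below the 3 control points, the 3 drug points of Cyp8b1 lie below the 3 model points, and the lowest model point of Cyp7a1, 10.20, lies below control 2, 10.66.

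Cyp7a1 encodes the rate-limiting hydroxylase of the classical pathway. Its log2 signal was 9.45, 10.66 and 9.06 in control 1, 2 and 3, then 10.86, 10.20 and 11.64 in model 1, 2 and 3, and 10.12, 10.91 and 11.49 in drug 1, 2 and 3. Control 1 and control 3 were the lowest of the 9 arrays, and control 2 lay inside the range of the model and drug livers. Group means were 9.73 ± 0.835 in control, 10.9 ± 0.717 in model and 10.84 ± 0.692 in drug livers (SD, n = 3 each). The model mean was 1.17 above the control mean (SE 0.500, 95% interval 0.06 to 2.29, or 2.25-fold). The limma adjusted p was 0.409, so this did not pass, and the groups overlapped. The drug mean was 1.11 above the control mean (SE 0.500, 2.17-fold, limma adjusted p = 0.683), again with overlap. Drug and model differed by -0.06, with a 95% interval from -1.17 to 1.06, which leaves room for a difference of about the size of the one between model and control in either direction. The order of the group means was model, drug, control, and no neighbours in it differed past the threshold.

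The distance of Cyp7a1 from control was carried unevenly by the arrays and settings. Without control 2 and drug 3 the model mean lay 1.64 above control (limma adjusted p = 0.627), with 2 control arrays left. It was 0.41 on unnormalized signals, 0.74 after median centring and 0.68 with a term for the Gapdh ratio, so its sign held under every setting tried while its size did not. For drug against control the value was 0.55 on unnormalized signals. The medians of all probe sets on unnormalized signals were -0.40 in model against control and -0.36 in drug against control. Values without normalization given below are to be read beside these medians. The deposited linear signals before any scaling were 1433, 1344 and 850.3 in control, 1847, 814.7 and 2544 in model and 1920, 1278 and 2081 in drug livers, where model 2 was the lowest of all 9.

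Hsd3b7 encodes the dehydrogenase and isomerase that acts after the ring has been hydroxylated. Its log2 signal was 8.44, 8.86 and 8.02 in the control livers, 7.28, 7.63 and 7.52 in the model livers, and 8.52, 7.63 and 8.25 in the drug livers. The 3 model livers all lay below the 3 control livers. The model mean, 7.47 ± 0.180 (SD, n = 3), was 0.97 below the control mean, 8.44 ± 0.420 (SD, n = 3), with an SE of 0.297 and a 95% interval of the model minus control difference from -1.63 to -0.30. This is a 1.95-fold lower signal, and the limma adjusted p was 0.384. Lower model signals without overlap were found for 10.9% of all probe sets. Hsd3b7 was lower in model than in control livers under every setting tried, by 0.76 without control 2 and drug 3 and by 1.63 on unnormalized signals. Without normalization the median of all probe sets was itself -0.40.

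In drug livers Hsd3b7 stood between the other groups, at a mean of 8.13. It was 0.66 above model (SE 0.297, 95% interval -0.00 to 1.32, limma adjusted p = 0.998) and differed from control by -0.31 (SE 0.297, limma adjusted p = 0.790). The drug and model livers touched without overlapping, since drug 2 and model 2 were both at 7.63, while drug 1 and drug 3 lay within the control range.

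**Figure D2:**
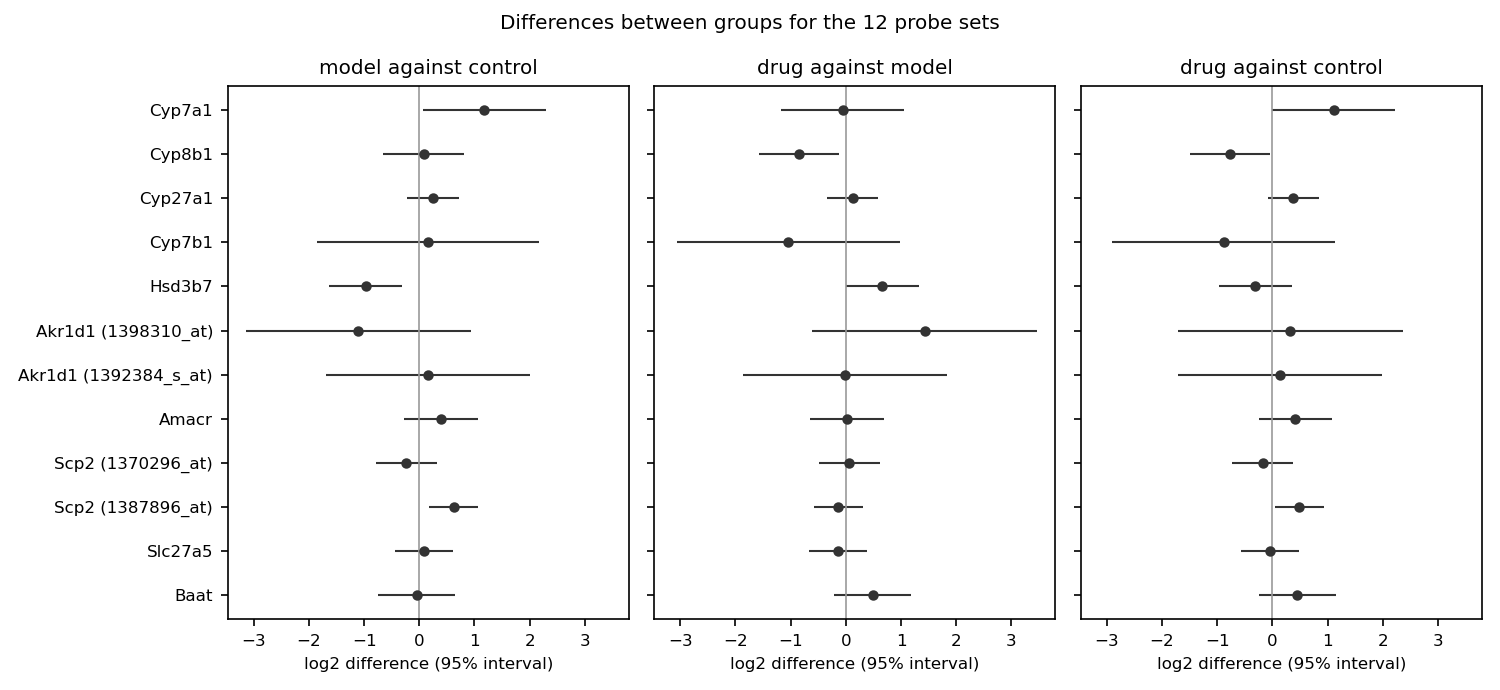
Log2 difference of group means (horizontal axis) for each of the 12 probe sets (vertical axis), with 1 panel for each of the 3 comparisons and 95% intervals of the limma fit. The intervals of Cyp7a1 and Scp2 1387896_at lie above 0 and that of Hsd3b7 below 0 in model against control, and that of Cyp8b1 lies below 0 in drug against model. No difference passed after adjustment over 18625 probe sets.

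Cyp8b1 encodes the hydroxylase whose activity decides how much cholic acid is made relative to chenodeoxycholic acid. Its log2 signal was 10.03, 10.47 and 9.95 in control, 10.19, 10.19 and 10.30 in model and 10.02, 9.50 and 8.60 in drug livers. The 3 model livers lay close together, and the 3 drug livers all lay below them and were spread over a wider range. The mean was 10.15 ± 0.280 in control, 10.23 ± 0.0668 in model and 9.38 ± 0.718 in drug livers (SD, n = 3 each). The drug minus model difference was -0.85 (SE 0.326, 95% interval -1.58 to -0.12), a 1.81-fold lower signal in drug livers with a limma adjusted p of 0.998. Lower drug signals without overlap were found for 4.7% of all probe sets. Drug against control was -0.77 (SE 0.326, limma adjusted p = 0.683), and these groups overlapped because drug 1 lay above control 3. Model and control differed by 0.08 (SE 0.326).

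Drug 3 had the lowest Cyp8b1 signal of the 9 livers, and it is one of the arrays that stand apart in sex-linked transcripts. Without drug 3 the difference was -0.47 against model and -0.39 against control. Without control 2 and drug 3 it was -0.47 and -0.23. The other array that stands apart, control 2, had the highest Cyp8b1 signal, 0.48 above the mean of the other control arrays, whereas drug 3 lay 1.16 below the mean of the other drug arrays. The drug livers kept the lower mean without these arrays, but the size of the difference rested largely on drug 3.

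Cyp8b1 is shown with its promoter because it was the member whose drug livers lay below the model livers and because it is a textbook target of the nuclear receptors HNF4A and LRH-1 (encoded by Nr5a2). The RefSeq promoter on GRCr8, chr8:130457543-130457842 on the minus strand, runs from 250 bases before to 50 bases after the gene's start. Capitals mark AAGGTC, which begins 88 bases before the start on the gene's strand. It holds all but the last base of AGGTCA, the half-site of nuclear receptors, and is followed here by c, so the half-site is incomplete.
Cyp8b1: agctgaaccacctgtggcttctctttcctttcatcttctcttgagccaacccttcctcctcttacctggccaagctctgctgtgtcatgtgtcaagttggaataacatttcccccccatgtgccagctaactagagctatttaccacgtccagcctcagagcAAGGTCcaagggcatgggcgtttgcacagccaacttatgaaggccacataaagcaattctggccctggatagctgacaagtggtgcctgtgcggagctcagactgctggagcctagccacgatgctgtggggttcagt
The stretch AAGGTC was chosen after the sequences were read. On either strand it was in 12.5% of the 33469 promoters of the same length and in 3 of the 7 member promoters found in the RefSeq table, those of Cyp8b1, Cyp27a1 and Amacr. Other motifs were searched on both strands in the same way, with N for any base and no mismatch allowed. TCAAGGNCA, bound by LRH-1, was in 1.6% of all promoters, TTATGNAA, the D-box bound by Dbp and its relatives, in 3.66%, CACGTG, the E-box of the clock, in 6.42% and the direct repeat of nuclear receptors with a spacing of 1 base in 0.0538%. None of these 4 was in a member promoter of the table. CAAAGTCCA, bound by HNF4A, was in 0.391% and in 1 member promoter, that of Baat.

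Akr1d1 encodes the reductase that gives bile acids their bent ring. Its brighter probe set, 1398310_at, was at 7.63, 10.20 and 8.08 in control, 7.84, 7.37 and 7.39 in model and 9.35, 6.77 and 10.76 in drug livers. Control 2 and drug 3 were the highest of the 9 arrays, at 2.35 and 2.70 above the means of the other arrays of their groups. Model minus control was -1.10 (SE 0.916, limma adjusted p = 0.601) and drug minus model was 1.43 (SE 0.916, limma adjusted p = 0.998). Without control 2 and drug 3 these were -0.32 and 0.53. The second probe set, 1392384_s_at, was at 7.11, 9.38 and 7.79 in control, 7.06, 8.12 and 9.58 in model and 6.91, 8.09 and 9.71 in drug livers. Its differences, 0.16 and -0.02 (SE 0.831), were not those of the first probe set, although control 2 and drug 3 were also 1.92 and 2.22 above the other arrays of their groups. The 2 probe sets parted most in model 3, where their mean-centred signals were 2.38 apart, so no direction is given for Akr1d1.

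Across the pathway, control 2 and drug 3 were both above the other 7 arrays for 2 of the 12 probe sets, Akr1d1 1398310_at and Baat, and below them for none. Over all 18625 probe sets tested, these shares were 2.95% above and 2.89% below. For Cyp7a1 they were 1.41 and 0.977 above the other arrays of their groups. For Cyp8b1 the 2 arrays went in opposite directions, as given above.

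**Figure D3:**
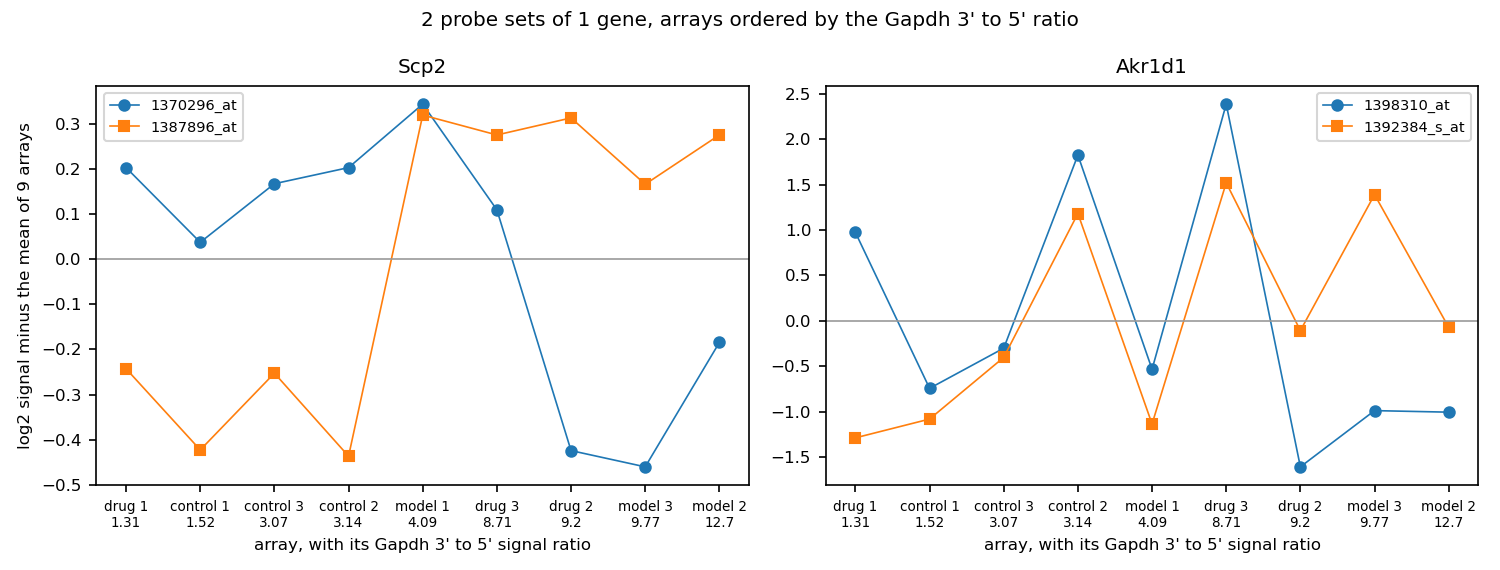
Log2 signal minus the mean over 9 arrays (vertical axis) for the 2 probe sets of Scp2 and of Akr1d1 (1 panel each), with the arrays on the horizontal axis in the order of their Gapdh 3' to 5' signal ratio, printed under each. The lines of the 2 probe sets cross in both panels and part most in drug 2 for Scp2, by 0.739, and in model 3 for Akr1d1, by 2.38.

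Cyp27a1 and Cyp7b1 form the alternative pathway. The log2 signal of Cyp27a1, the mitochondrial side-chain hydroxylase, was 9.99, 10.58 and 10.22 in control, 10.43, 10.49 and 10.63 in model and 10.45, 10.82 and 10.66 in drug livers. Control 1 and control 3 were the lowest of the 9 arrays, and control 2 lay among the model and drug livers. Model minus control was 0.25, drug minus model 0.13 and drug minus control 0.37 (SE 0.208 each, lowest limma adjusted p = 0.603). The sign of model against control turned to -0.61 without normalization, -0.28 after median centring and -0.05 after scaling to 1 trimmed mean, and that of drug against control to -0.29 without normalization. All probe sets stood at -0.40, -0.07 and 0.16 in model against control under these scalings and at -0.36 in drug against control without normalization.

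Cyp7b1, which hydroxylates oxysterols, was dim on this array, and its values sat near the filter level of 2.82. They were 3.86, 3.40 and 2.01 in control, 2.78, 3.76 and 3.21 in model and 0.45, 2.10 and 4.09 in drug livers. The drug livers held both the lowest and the highest value. Differences were 0.16 in model against control and -1.04 in drug against model (SE 0.906 each), and without control 1 and drug 1 the latter was -0.16. With a term for the Gapdh ratio, model against control was -0.97. The 95% interval of drug minus model ran from -3.06 to 0.98, so a difference of the size seen for Cyp8b1 was not detectable here.

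Among the peroxisomal steps, Amacr, the racemase that prepares the side chain, was at 10.21, 11.00 and 10.33 in control, 11.48, 10.43 and 10.81 in model and 10.83, 10.86 and 11.10 in drug livers. The groups overlapped in every comparison. Model minus control was 0.39, drug minus model 0.02 and drug minus control 0.41 (SE 0.299 each, lowest limma adjusted p = 0.571). Model against control was -0.40 without normalization and -0.07 after median centring, and drug against control was -0.24 without normalization. All probe sets stood at -0.40, -0.07 and -0.36 there.

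Scp2 encodes a sterol carrier protein and, from a longer transcript, the thiolase that splits the shortened side chain. Its brighter probe set, 1370296_at, was at 11.79, 11.95 and 11.92 in control, 12.09, 11.56 and 11.29 in model and 11.95, 11.32 and 11.86 in drug livers. Model minus control was -0.24 (SE 0.247, limma adjusted p = 0.678), with overlap. The second probe set, 1387896_at, was at 10.44, 10.43 and 10.61 in control, 11.18, 11.14 and 11.03 in model and 10.62, 11.18 and 11.14 in drug livers. There the 3 model livers lay above the 3 control livers, with a difference of 0.63 (SE 0.199, 95% interval 0.18 to 1.07, limma adjusted p = 0.384), and the 3 drug livers also lay above control, by 0.49 (SE 0.199, limma adjusted p = 0.683). Higher signals without overlap were found for 11.8% of all probe sets in the model livers and for 6.05% in the drug livers. Drug 1 came nearest to control, at 10.62 against 10.61 in control 3. Without normalization these differences were -0.17 and -0.12, where all probe sets stood at -0.40 and -0.36. With a term for the Gapdh ratio they were 0.40 and 0.36. Which Scp2 transcripts each probe set reads is not given in the files, so the 2 values are left side by side.

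Slc27a5, the ligase that joins bile acids to coenzyme A, was at 11.67, 11.67 and 11.77 in control, 11.47, 11.67 and 12.22 in model and 11.30, 11.84 and 11.82 in drug livers. Control values were tight (SD 0.0533, n = 3) and fell inside the range of both other groups. Its differences were 0.08, -0.14 and -0.05 for model minus control, drug minus model and drug minus control (SE 0.236 each). The 95% intervals stayed between -0.66 and 0.61 in all 3 comparisons. Model against control was -0.49 without normalization, where all probe sets stood at -0.40.

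Baat, which conjugates bile acids with taurine or glycine, was at 10.49, 11.11 and 10.53 in control, 10.80, 10.54 and 10.67 in model and 10.55, 11.10 and 11.83 in drug livers. Drug 3 and control 2 were the highest of the 9 arrays, with drug 2 just under control 2. Model minus control was -0.04, drug minus model 0.49 and drug minus control 0.45 (SE 0.313 each, lowest limma adjusted p = 0.738). Without drug 3 the drug differences were 0.15 and 0.11, and without normalization drug minus control was -0.11. All probe sets stood at -0.36 in drug against control without normalization.

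The Baat promoter is shown as the member promoter that held a motif listed at the outset. It lies at chr5:68656088-68656387 on the minus strand of GRCr8 (RefSeq), and capitals mark CAAAGTCCA, which begins 90 bases before the start on the gene's strand. A match of letters is a description and does not show that HNF4A binds there.
Baat: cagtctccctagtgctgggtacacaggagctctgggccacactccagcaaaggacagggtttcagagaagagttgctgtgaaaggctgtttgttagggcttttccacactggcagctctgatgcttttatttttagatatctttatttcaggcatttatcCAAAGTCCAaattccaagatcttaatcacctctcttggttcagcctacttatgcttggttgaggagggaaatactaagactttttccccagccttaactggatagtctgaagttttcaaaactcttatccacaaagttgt
Promoters of Cyp7a1, Cyp7b1 and Akr1d1 are not shown.

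The regulators of the pathway were described from a list of 20 genes, of which 18 were in the table and 16 passed the filter. None passed an adjusted p under 0.05 by limma in any comparison. At an unadjusted p under 0.05, 1 stood higher for model minus control, 2 for drug minus model and 3 for drug minus control, against 6.51%, 1.47% and 4.19% of all probe sets. None stood lower, against 5.54%, 1.8% and 3.03%. Their median difference was 0.40, 0.35 and 0.25 in these comparisons, beside 0.02, -0.02 and -0.02 over all probe sets. Without normalization it was -0.32 in model against control and -0.22 in drug against control, where all probe sets stood at -0.40 and -0.36. After median centring it was 0.01 and 0.07, where all probe sets stood at -0.07 in both.

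Nr0b2, the repressor SHP that bile acids induce, was at 5.10, 5.77 and 2.94 in control, 5.50, 4.85 and 4.67 in model and 6.89, 6.29 and 7.65 in drug livers. The 3 drug livers lay above all 6 control and model livers. Drug minus model was 1.93 (SE 0.652, limma adjusted p = 0.998) and drug minus control 2.34 (SE 0.652, limma adjusted p = 0.676), so neither passed. Higher drug signals without overlap were found for 3.35% of all probe sets against model and for 6.05% against control. Drug 3, which stands apart in sex-linked transcripts, had the highest Nr0b2 signal and the lowest Cyp8b1 signal of the 9 livers. Drug 1 was above drug 2 in both genes, with Cyp8b1 at 10.02 against 9.50. A link between the 2 genes was not tested. Without control 2 and drug 3 the Nr0b2 differences were 1.58 and 2.57. Without control 3, the lowest array, drug minus control was 1.50.

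The receptor that induces Nr0b2, Nr1h4, was at 8.40, 8.23 and 8.47 in control, 8.44, 8.72 and 9.16 in model and 7.87, 9.20 and 8.55 in drug livers, with overlap in every comparison. Its differences were 0.40, -0.23 and 0.18 (SE 0.331 each) for model minus control, drug minus model and drug minus control, of which the first and the last were -0.32 and -0.41 without normalization. Nr5a2, which activates Cyp7a1 and Cyp8b1, differed by -0.60, 0.37 and -0.23 (SE 0.506 each), and its groups overlapped throughout, as they did for its 2 dimmer probe sets, with model minus control at -0.30 and -1.15. Hnf4a, the hepatocyte receptor that activates both genes, was by its brightest probe set at 10.14, 10.50 and 10.67 in control and at 10.69, 10.95 and 11.05 in model livers. These groups just cleared each other, with a difference of 0.46 (SE 0.269, limma adjusted p = 0.482) that was -0.34 without normalization and -0.01 after median centring. Its other probe sets went the opposite way, also without overlap. The first was at 7.34, 5.67 and 5.68 in control and 5.24, 5.57 and 5.01 in model livers (difference -0.96, SE 0.547, limma adjusted p = 0.474), and the second differed by -1.03 (SE 0.579, limma adjusted p = 0.470), so no direction is given for Hnf4a. Fgfr4, the receptor of the intestinal signal, differed by 0.19, -0.13 and 0.07 (SE 0.300 each), and Nr1h3, the oxysterol receptor that induces Cyp7a1 in rodents, by 0.02, 0.01 and 0.02 (SE 0.227 each). Without normalization the model minus control difference was -0.32 for Fgfr4 and -0.68 for Nr1h3.

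Of the other regulators, Prox1, a corepressor of Cyp7a1, had a log2 signal of 8.16, 8.12 and 8.47 in control and 9.57, 9.13 and 9.54 in model livers. The model mean was 1.16 above control without overlap (SE 0.417, limma adjusted p = 0.388), and 0.43 above it without normalization and 0.76 after median centring. Its dimmer probe set gave 0.95 (SE 0.527) with overlap. By the brighter Prox1 probe set, drug 1, at 7.47, was the lowest of the 9 arrays, and drug 2 and drug 3 were at 9.25 and 9.11. By the dimmer one the drug livers were at 3.70, 3.72 and 3.93 and the control livers at 3.66, 1.73 and 2.94. Nr1i3 and Nr1i2 encode the xenobiotic receptors CAR and PXR. Nr1i3 was 1.62 higher in drug than in model livers (SE 0.623, limma adjusted p = 0.998) with overlap. Nr1i2 was 0.74 higher in drug than in control livers (SE 0.251, limma adjusted p = 0.683) without overlap, and 0.34 higher without normalization. Nr2f2, an orphan receptor, was by its brightest probe set 0.50 lower in model than in control livers (SE 0.277, limma adjusted p = 0.460), also without overlap. Its other probe sets had the higher mean in model livers, by 0.17 (SE 0.313) and 0.67 (SE 0.517) with overlap, so no direction is given for it either.

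**Figure D4:**
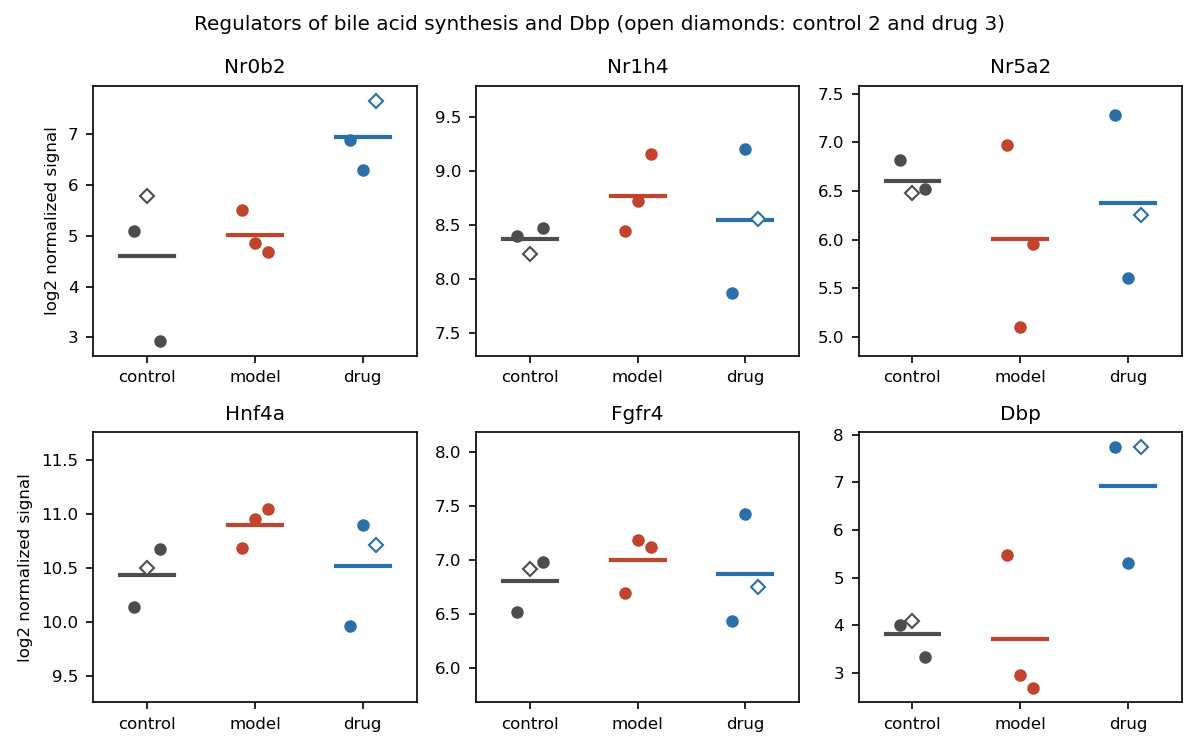
Log2 normalized signal (vertical axis) of Nr0b2, Nr1h4, Nr5a2, Hnf4a, Fgfr4 and Dbp, each by its brightest probe set, in the 3 control, 3 model and 3 drug arrays (horizontal axis). Each point is 1 liver, bars are group means, and open diamonds are control 2 and drug 3. The drug points of Nr0b2, 6.29 to 7.65, lie above all control and model points, and for Dbp drug 2, at 5.30, lies below model 1, at 5.48.

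Cyp7a1 transcription follows the time of day in rodents, driven in part by the clock output factor Dbp, and the time of killing is not given in the sources used here. Dbp was at 4.0, 4.08 and 3.34 in control, 5.48, 2.96 and 2.68 in model and 7.74, 5.30 and 7.75 in drug livers. Drug minus model was 3.22 (SE 0.811, limma adjusted p = 0.998) and drug minus control 3.12 (SE 0.811, limma adjusted p = 0.676). All drug livers lay above all control livers, while drug 2 was below model 1. Nr1d1, a repressor of the clock loop, was at 2.12, 3.70 and 4.37 in control, 5.14, 3.85 and 5.30 in model and 6.47, 6.39 and 7.38 in drug livers, without overlap of the drug livers with either group. Nr1d2, its close relative, was 1.91 higher in model than in control livers (SE 0.559, limma adjusted p = 0.384) with overlap, and 2.92 higher in drug than in control livers (SE 0.559, limma adjusted p = 0.676) without. Its dimmer probe set past the filter gave 0.71 and 2.43 (SE 0.658 each). Per3, a period gene that was dim in control livers at -0.06, 0.04 and 0.55, was at 5.16, 0.12 and 4.39 in model livers. Of 12 clock genes past the filter, 7 were higher and 2 lower in drug than in control livers at an unadjusted p under 0.05, none after adjustment by limma, against 4.19% and 3.03% of all probe sets. In model against control 3 were higher and 0 lower, against 6.51% and 5.54%, and in drug against model 2 were higher and 1 lower, against 1.47% and 1.8%. The part of sampling time in the values of Cyp7a1 and the other members was not tested.

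From a list of 16 further enzymes of the pathway, 15 were in the table and 13 passed the filter. In model against control 4 were higher and 9 lower, with a median of -0.47 that stayed negative under the 3 other scalings, and 1 higher and 2 lower had an unadjusted p under 0.05, against 6.51% and 5.54% of all probe sets. Hsd17b10, a mitochondrial dehydrogenase that also acts on steroids, was at 9.69, 10.08 and 9.54 in control and 9.37, 8.19 and 7.30 in model livers, lower without overlap by 1.48 (SE 0.553, limma adjusted p = 0.395) and by 2.23 without normalization. Hsd17b4, the peroxisomal enzyme that works between Amacr and Scp2, was at 9.92, 10.06 and 9.92 in control and 10.25, 10.54 and 10.55 in model livers, 0.48 higher without overlap (SE 0.185, limma adjusted p = 0.397), but at -0.44 without normalization and -0.11 after median centring. In drug against model 8 were higher and 5 lower, with a median of 0.11, and none had an unadjusted p under 0.05. The smallest p there were those of Hsd17b4, with a difference of -0.28, and of Abcd3, a peroxisomal transporter of bile acid precursors, with -0.60. In drug against control 3 were higher and 10 lower, with a median of -0.30, among them Hsd17b6, a steroid dehydrogenase, at -0.99 and Hsd17b10 at -1.05, again with none at an unadjusted p under 0.05.

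Of 9 genes for electron donors and sterol delivery, 8 were in the table and 7 passed the filter. In model against control 2 were higher and 5 lower, with a median of -0.47, and none passed after adjustment by limma. Stard4, a cytosolic sterol transporter, was by its brightest probe set 0.79 higher without overlap (SE 0.328, limma adjusted p = 0.406), and 0.26 higher without normalization. Its next brightest probe set had the lower mean in model livers, with signals of 5.94, 5.73 and 6.31 in control and 5.70, 5.43 and 5.67 in model livers (difference -0.39, SE 0.390, no overlap), and the dimmest differed by 1.12 (SE 0.976) with overlap. Stard5, a related lipid carrier, was 0.50 lower without overlap (SE 0.217, limma adjusted p = 0.410), and its other probe sets were also lower without overlap, at -1.22 (SE 0.370) and -0.74 (SE 0.370). In drug against control the median was -0.44. By its brightest probe set Stard5 was at 7.86, 7.71 and 7.90 in control and 7.16, 7.22 and 6.82 in drug livers. It was lower without overlap by 0.76 (SE 0.217, limma adjusted p = 0.676) and by 1.21 without normalization. Its other probe sets had drug means of 5.44 against 6.56 in control without overlap and of 5.20 against 6.05 with overlap. Cyb5r3, a reductase that passes electrons to cytochrome b5, was 0.64 lower (SE 0.294, limma adjusted p = 0.684), also without overlap, and 1.30 lower without normalization. Lower drug signals without overlap were found for 6.49% of all probe sets. In drug against model the median of the 7 genes was -0.08.

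The genes whose profiles were most like that of Cyp7a1 were found by the root mean square difference of mean-centred log2 signals over the 9 arrays, among 13922 probe sets of 1 gene. They were Leng1 at 0.350, RGD1559600 at 0.353 and Tcea3 at 0.373, where the Cyp7a1 profile itself had a root mean square of 0.817. Leng1 was at 2.60 and 2.52 in control 1 and control 3, under the filter level of 2.82. Tcea3 was at 6.58, 7.93 and 7.09 in control, 8.38, 7.59 and 8.39 in model and 7.20, 8.82 and 8.86 in drug livers. It was lowest in control 1 and control 3, with drug 1 next. For Cyp7b1, with a root mean square of 1.10, they were Tnpo1 at 0.450, LOC102546992 at 0.489 and Btrc at 0.556. In Tnpo1, LOC102546992 and Btrc drug 1 was the lowest array, at 1.57, 5.11 and 0.35, as it was for Cyp7b1. Because all these genes were picked for a like profile, the low arrays they share with the member are no separate result.

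**Figure D5:**
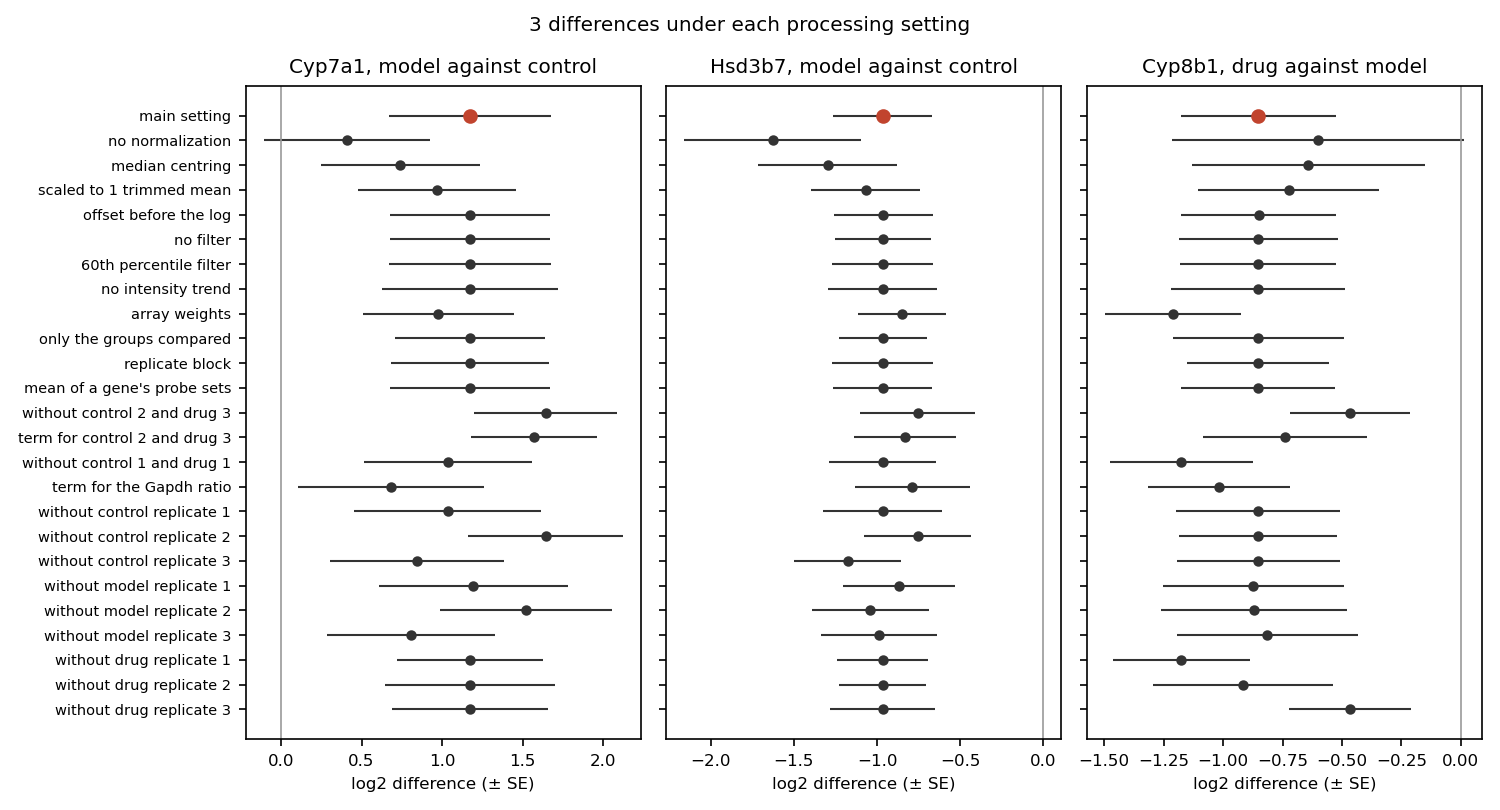
Log2 difference with its SE (horizontal axis) under the main setting, in red, and each alternative setting (vertical axis), for Cyp7a1 and Hsd3b7 in model against control and Cyp8b1 in drug against model (1 panel each). All values keep their sign. Cyp7a1 lies between 0.41 and 1.64, Hsd3b7 between -1.63 and -0.76 and Cyp8b1 between -1.21 and -0.47.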

How the data were processed

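The deposited values were linear signal intensities, 1 for each probe set and array, which the authors made with GCOS 1.2 (named in the submitters' processing notes). The settings of GCOS are not given in the sources used here. Total RNA was labelled with biotin by Affymetrix's own protocol, per the labels' protocols. Here the signals were put on the log2 scale and quantile-normalized over 31042 probe sets, leaving out 57 control probe sets. Probe sets whose mean signal reached the 40th percentile were kept. Group differences were fitted with limma 3.58.1 (R 4.3.3, lmFit, eBayes with a trend on intensity, 1 fit of all 9 arrays), two-sided, with Benjamini-Hochberg adjustment over 18625 probe sets and a threshold of 0.05. With 3 arrays a group an exact permutation test cannot go below 0.1, and the few arrays limit the precision of all values.

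The fit was tested on simulated data for model against control over 18625 probe sets: of 50 probe sets each changed by 1, 2, 3 and -2 (log2), it called 6%, 48%, 72% and 62%, with 5 wrong calls. The changed probe sets were drawn from those at or above the 60th percentile of mean signal, with independent normal noise in each array. Differences that run through a whole array were not simulated. The shares called may therefore not hold for the real arrays or for dim genes such as Cyp7b1.

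A gene with several probe sets was represented by the brightest. For the members and the pathway and clock genes named, the others past the filter are given beside it, though not in every comparison. All members were named. From each list of pathway genes, regulators and clock genes, the 2 genes with the smallest unadjusted p in each comparison were named where none passed, with Nr1h4, Nr0b2, Nr5a2, Hnf4a, Nr1h3, Fgfr4 and Dbp. The members and lists were chosen with earlier results of these data known. Promoters come from RefSeq on GRCr8, from 250 bases before to 50 after the start, and 7 of the 10 members were matched by symbol.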

Additional observations from a re-analysis of the deposited data

How the results depend on the processing

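Under 25 alternatives in each comparison, no member probe set passed the threshold, while over all probe sets at most 4 did, against 0 in the main setting. Of 714 alternative values of single genes, 649 kept their sign and their side of the threshold, and 65 uncalled values turned their sign. The median over the members, 0.08 in model against control, was -0.71 without normalization, -0.38 after median centring and -0.15 after scaling to 1 trimmed mean. In drug against control it was 0.14, and -0.40 without normalization and -0.12 after median centring. With each array left out in turn it ran from -0.08 to 0.20 in model against control, from -0.09 to 0.18 in drug against model and from -0.19 to 0.23 in drug against control, with the negative values of the last without drug 3 (-0.19) and without control 1 (-0.12). The cause of these shifts was not tested. The samples share replicate numbers, which the main fit did not take as pairs. Deviations of same-numbered arrays correlated at -0.01 to 0.20, 0.08 to 0.39 and 0.04 to 0.48 in the 3 comparisons. Those of differently numbered arrays correlated at -0.22 to 0.09, -0.37 to 0.30 and -0.36 to 0.32. In each comparison the highest value was that between the arrays numbered 1. Whether the numbers mark pairs was not tested. With the replicate number as a block, 0 member probe sets passed in each comparison, 3 of all probe sets passed in model against control, and the difference of Cyp7a1 there remained 1.17 (limma adjusted p = 0.237). The dim signal of Cyp7b1 limits what can be seen of it, and it was not kept by the 60th percentile filter, which gave no value.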
